A study of Rattus norvegicus with 78 samples.

Results

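1,2-Dibromo-3-chloropropane (DBCP) was once injected into soil to kill nematodes, and it harms the germ cells of males. Sperm RNA of DBCP rats was compared here between rats sampled at the end of the exposure and rats left to recover, so that every rat in the comparison had been treated. The arrays were chosen by their titles: 20 arrays of DBCP rats without recovery and 19 of DBCP rats with recovery, 39 of the 78 arrays of the study. All rats were of the Fischer 344 strain. DBCP was given at 5 mg/kg/d, for 3 months by the text of the series. The 39 corn oil arrays, 20 at the end and 19 after recovery, come from rats given the vehicle alone and serve as the time course without the toxicant. The ages of the rats and the length of the recovery were not stated in the labels. Recovered rats were sampled later than the others, so recovery, age and time of collection cannot be told apart within the DBCP rats. The samples were called biological replicates in their titles, and nothing names the animals behind them, so the p-values measure the spread between these samples.

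Sperm had been let out of the punctured cauda epididymis, the store at the end of the epididymal duct, and washed in an ammonium chloride buffer that lyses red cells. A ripe sperm makes almost no new RNA. What it carries is left over from the round and elongating spermatids of the testis, which store messages for protamines, tail proteins and sperm-type enzymes in advance, because transcription ends when the chromatin is packed. Cells that travel with the sperm, such as leukocytes, shed lining cells of the duct or immature germ cells, add their own messages to such a preparation. In a bulk sample, fewer cells of a type and less RNA per cell cannot be told apart.

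The transcripts of late spermatids set the direction of the largest changes in DBCP rats, and they were lower after recovery. Transcripts of immune cells led the rises. Of 14506 genes with a probe set of 1 gene symbol, 1309 rose after recovery (9.02%) and 1077 fell (7.42%) at a limma adjusted p under 0.05, and 12120 did not pass. Over all 29214 probe sets 3933 were called (13.5%), of which 2126 rose (7.28%) and 1807 fell (6.19%). Differences are log2 values, recovery minus end of exposure, and are given with their standard error (SE). The median over all genes was 0.01 and the median SE 0.06. The sizes were unequal: 246 genes fell by at least 0.5 and 44 by at least 1, while 43 rose by at least 0.5 and 0 by at least 1. The share of genes that fell went from 4.93% of the 8904 genes with a mean level below 7 to 26.2% of the 130 genes at 10 or above, whereas the share that rose was between 7.64% and 11.2% in the 5 ranges of level. Limma gave 5 of the 39 DBCP arrays a weight under 0.5: replicates 2, 13 and 20 of the end of exposure and 7 and 15 of recovery. Without them and 1 such corn oil array 1894 probe sets rose and 1515 fell, and the values below were near those with them (Spata19 -1.44, Akap4 -1.29, Prm2 -1.01, Clec7a 0.84, Cd74 0.79 and Defb43 0.78). Of the named genes that passed, Apex1, Polb, Cox8a and Smcp did not pass without them.

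**Figure D1:**
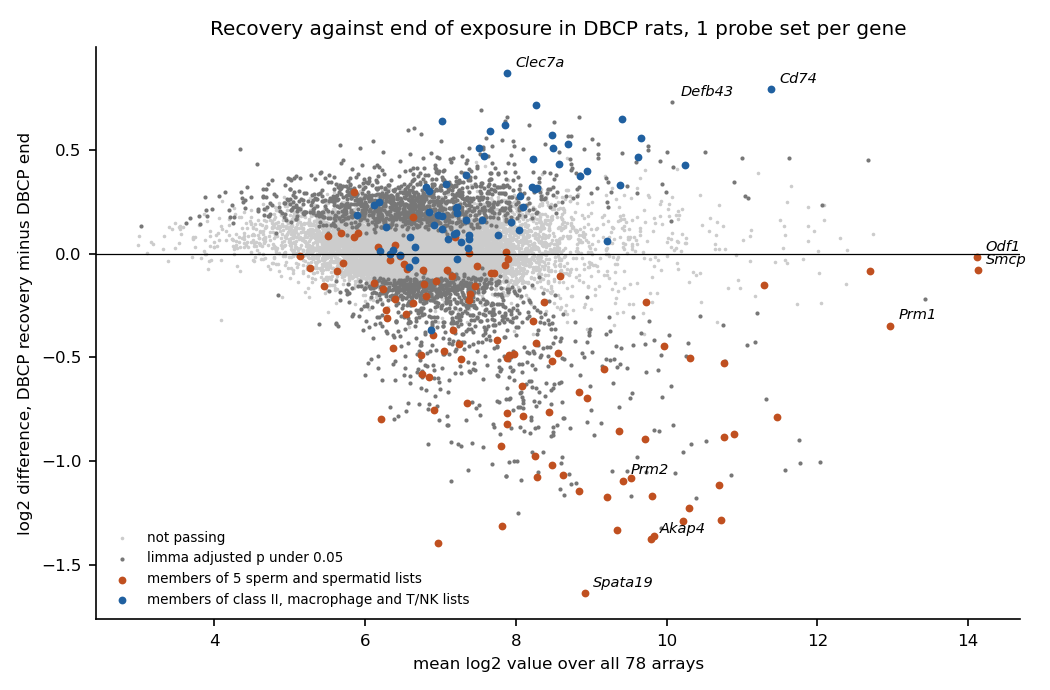
Log2 difference between recovery and end of exposure in DBCP rats (vertical) against the mean log2 value over all 78 arrays (horizontal), 1 point per gene. Orange points are members of the lists for chromatin condensation, spermatid kinases and regulators, fibrous sheath, acrosome and energy metabolism, and blue points those of the class II, macrophage and T and natural killer cell lists; dark grey points have a limma adjusted p under 0.05. The orange points reach down to -1.63 (Spata19) and the blue points up to 0.87 (Clec7a), while the brightest sperm transcripts on the right, Odf1 and Smcp, lie near 0.

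Spata19, a mitochondrial protein of spermatids and sperm, had the largest fall. At the end of exposure its level ran from 8.23 over a median of 9.70 to 12.14, and after recovery from 7.16 over 8.22 to 9.27. All 19 recovery arrays lay below the earlier mean and 10 of them below every earlier array, and the values at the end of exposure were the more spread. The difference was -1.63 ± 0.25 (3.10-fold lower, limma adjusted p = 1.68e-06).

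Spata31f3, of a family of spermatid proteins, ran from 6.54 over 7.73 to 9.89 at the end and from 5.66 over 6.45 to 7.28 after recovery. Here 13 of 19 recovery arrays lay below all earlier ones, and the difference was -1.39 ± 0.21 (limma adjusted p = 7.13e-07). Akap4, which builds most of the fibrous sheath around the tail, ran from 9.67 over 10.47 to 12.30 and then from 8.31 over 9.24 to 10.38. Of its recovery arrays 16 were below all earlier ones, and it fell by 1.37 ± 0.19 (limma adjusted p = 1.64e-07).

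The other 12 of the 15 largest falls lay between -1.36 and -1.16, and in each of them all 19 recovery arrays were below the mean at the end of exposure. They include the 5'-nucleotidase Nt5c1b (-1.36 ± 0.15), Phkg2, the catalytic subunit of the testis and liver form of phosphorylase kinase (-1.32 ± 0.15), and Tnp1 (-1.29 ± 0.22). Spata6, needed to join head and tail in the mouse, had -1.17 ± 0.16, and Spa17, which has the docking domain that binds A-kinase anchors, also had -1.17 ± 0.17. Stat4, a transcription factor of lymphocytes that is also made in spermatids, closed the list with -1.16 ± 0.17. Ms4a14, Spata32, Ubqlnl, Cby2, Garin1a and Lrrc46 made up the rest. Nt5c1b and Phkg2 had the smallest adjusted p of these (3.06e-09 each, limma).

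In mouse round spermatids the factor CREM, which binds cyclic AMP response elements, switches on many late genes. The promoters of the 15 genes were searched for the core of its site, TGACGT, on both strands. The sequences are RefSeq's, on the GRCr8 build, from 250 bases before to 50 after the start of transcription, and positions are counted with the start as 0. Promoters were found for 13 of the 15 genes, and 2 of the 13 held the letters, against 7.94% of 33469 rat promoters of the same length. Both are shown with the letters in capitals. The genes were chosen as the largest falls, so any match had to belong to a gene that fell. That of Tnp1 lies at chr9:82044229-82044528 (minus strand) and holds 2 overlapping matches at -113 and -111, which form the whole palindrome. That of Spata32 lies at chr10:88664095-88664394 (minus strand) with the match at -82, on the opposite strand. A match is a description of letters and no sign of binding, and no match says only that these letters are not in the window.
Tnp1: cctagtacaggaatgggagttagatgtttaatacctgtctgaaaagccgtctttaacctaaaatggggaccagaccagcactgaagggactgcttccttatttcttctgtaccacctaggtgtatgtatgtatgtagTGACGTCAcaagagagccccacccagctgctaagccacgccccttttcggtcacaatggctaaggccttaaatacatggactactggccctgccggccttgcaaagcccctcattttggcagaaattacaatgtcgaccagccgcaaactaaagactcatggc
Spata32: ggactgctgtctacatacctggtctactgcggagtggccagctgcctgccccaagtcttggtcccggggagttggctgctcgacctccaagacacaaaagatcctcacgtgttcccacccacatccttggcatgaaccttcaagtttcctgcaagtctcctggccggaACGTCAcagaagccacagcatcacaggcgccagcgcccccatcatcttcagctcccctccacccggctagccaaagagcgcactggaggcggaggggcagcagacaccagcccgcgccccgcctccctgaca

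**Figure D2:**
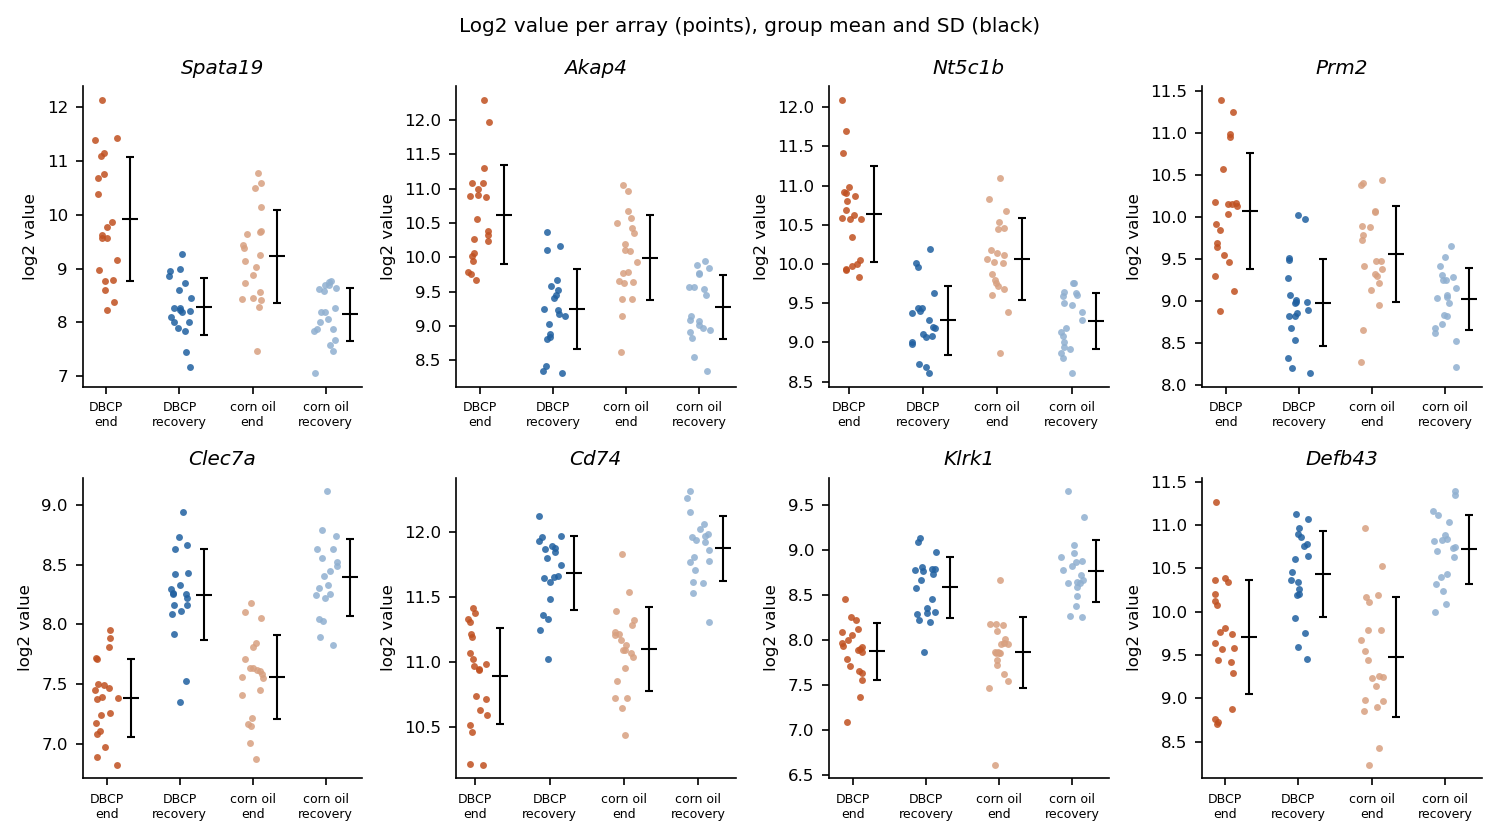
Log2 value on each array (points) for 8 genes in the 4 groups, with the group mean and SD in black. In the upper row Spata19, Akap4, Nt5c1b and Prm2 are lower after recovery in DBCP rats, and in the lower row Clec7a, Cd74, Klrk1 and Defb43 are higher; the 2 corn oil groups on the right of each panel differ in the same direction.

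The packing of sperm DNA involves transition proteins, which replace histones, and then protamines, which replace the transition proteins. Of 16 genes of chromatin condensation 9 fell and 1 rose, with a median of -0.27. Tnp1, the first transition protein, was at 9.53, 10.93 and 12.88 (lowest, median and highest) at the end and at 8.55, 9.65 and 10.81 after recovery. Prm2 was at 8.88, 10.08 and 11.40 and then at 8.14, 8.97 and 10.02, with 8 recovery arrays below all earlier ones (-1.09 ± 0.17, limma adjusted p = 2.46e-06). Prm1 was far brighter and moved less: 12.67, 13.15 and 13.54 at the end and 12.38, 12.83 and 13.17 after recovery, a fall of 0.35 ± 0.07 (limma adjusted p = 0.000343). The groups of both protamines overlapped. Tnp2 did not pass (-0.15 ± 0.14), with 13 of 19 recovery arrays below the earlier mean. H1f7, the linker histone of spermatids, fell by 0.77 and H2ap, a short histone variant of the testis, by 1.06. Tssk6, a kinase needed for packing in the mouse, fell too (-0.89). The single rise was that of Gmcl1 (0.18), a protein of the germ cell nuclear envelope.

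Of 30 spermatid kinases, regulators and Spata genes 24 fell and 0 rose, and the median was -0.67. The list was drawn up with earlier results known, and Nt5c1b, Ubqlnl, Garin1a, Fam229b, Ms4a14 and Fndc8, all among its falls, are neither kinases nor Spata genes. Without these 6, a choice made after seeing the data, 18 of 24 fell, 0 rose and the median was -0.47. Beside those named above they include Spem1, which acts in shedding of the cytoplasm in the mouse (-1.08), and Fndc8 (-0.86). The testis-specific kinases Tssk3 (-0.48), Tssk2 (-0.42) and Tssk1b (-0.24), the testis poly(A) polymerase Papolb (-0.46) and the transcription factor Rfx2 (-0.32), which turns on genes of spermatids and cilia in the mouse, fell by less.

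The fibrous sheath, the outer dense fibres and the mitochondrial capsule make up the accessory structures of the tail. The list of these also holds calyx proteins of the sperm head, such as Ccin. Of its 15 genes 10 fell, 0 rose, and the median was -0.49. After Akap4 and Spa17 came Odf4 (-0.72), Ccin, a basic protein of the calyx behind the acrosome (-0.58), and Gpx4, a selenoprotein that hardens the capsule (-0.52). Akap3, the partner of Akap4, fell by 0.49 ± 0.09. The brightest members hardly moved. Odf1, the main outer dense fibre protein, was at 13.94, 14.16 and 14.25 at the end and at 13.89, 14.13 and 14.26 after recovery (-0.02 ± 0.03, not passing). Smcp, the cysteine-rich protein of the capsule, was at 14.04, 14.16 and 14.27 and then at 13.89, 14.09 and 14.20 (-0.08 ± 0.03, limma adjusted p = 0.0466), and this call was lost in 22 of the fits that left out 1 array. The highest value in the whole table was 14.69, and the part that the upper end of the scale plays in these small differences was not tested.

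The axoneme, the motor of the tail, had smaller differences: 7 of 22 genes fell, 0 rose, and the median was -0.15. The falls were those of the tektins Tekt4 (-0.38 ± 0.08), Tekt2 (-0.32), Tekt1 (-0.31) and Tekt3 (-0.17), which line the outer microtubule doublets, of the dynein heavy chains Dnah1 and Dnah8 (-0.19 and -0.20) and of Spag8 (-0.24). Of 28 acrosome and egg-binding genes 11 fell and 0 rose, with a median of -0.10. Ace, whose testis form is made in spermatids, fell by 0.78 ± 0.10 and was below all earlier arrays on 14 recovery arrays. Sppl2c, a protease of spermatids (-1.02), Adam5 (-0.93), Crisp2 (-0.88) and Adam3a (-0.82), a surface protein that mouse sperm need to pass the oviduct, fell further than the proacrosin gene Acr (-0.49) and its binding protein Acrbp (-0.37).

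Sperm use their own forms of glycolytic enzymes, several of them anchored to the fibrous sheath. Of 16 genes of sperm-type energy metabolism 9 fell and 1 rose, and the median was -0.41. Gapdhs, the sperm glyceraldehyde-3-phosphate dehydrogenase, was at 10.30, 11.33 and 12.76 at the end and at 9.59, 10.24 and 11.07 after recovery, with 13 arrays below all earlier ones (-1.11 ± 0.15, limma adjusted p = 1.3e-07). Ldhc, the sperm lactate dehydrogenase, was at 7.42, 8.91 and 10.31 and then at 7.51, 8.09 and 8.91 (-0.76 ± 0.15), so that its recovery arrays all lay within the earlier range. Pgk2 (-0.56), Hk1 (-0.53) and Pgam2 (-0.50) fell too, while Dld, a subunit shared by mitochondrial dehydrogenases, rose (0.30).

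Of 17 channels, pumps and motility genes 3 fell: Atp1a4, the sodium pump subunit of sperm (-1.07 ± 0.16), Tcp11, a motility factor (-1.04 ± 0.14), and Adcy10, the bicarbonate-sensing adenylyl cyclase (-0.35). The median of this list was -0.12. Genes of the earlier steps, meiosis and the piRNA pathway that silences transposons, had 7 falls of 23 and a median of -0.04. Mael, which is needed for piRNA function, fell by 0.83 ± 0.17, and the meiotic cohesin subunits Stag3 and Rec8 fell by 0.34 and 0.20. Rec8 gave a weak signal, with mean levels of 6.29 and 6.09, below the medians of the arrays (6.55 to 6.75). In the lists for kinases and regulators, fibrous sheath, axoneme, acrosome, channels and meiosis 0 members rose. In those for condensation and energy metabolism 1 each rose. Over all genes 9.02% rose and 7.42% fell, so few rises would fall to any 1 of these lists. The lists without rises were not tested as a set. Most members did not pass in the lists for axoneme (15 of 22), acrosome (17 of 28), channels (14 of 17) and meiosis (16 of 23).

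Among the rises, genes of phagocytes, antigen presentation and natural killer cells led. Clec7a is dectin-1, a receptor of macrophages and dendritic cells for fungal glucans. Its level ran from 6.82 over 7.39 to 7.96 at the end of exposure and from 7.35 over 8.26 to 8.94 after recovery. On 16 of 19 recovery arrays it was above every earlier array, and 1 recovery array was below the earlier mean. The difference was 0.87 ± 0.11 (1.82-fold, limma adjusted p = 2.81e-08).

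Cd74 is the invariant chain that escorts class II molecules to the compartment where they are loaded. It ran from 10.21 over 10.96 to 11.42 and then from 11.02 over 11.75 to 12.12, with 15 recovery arrays above all earlier ones (0.79 ± 0.10, limma adjusted p = 2.41e-08). Defb43, a beta-defensin, a class of antimicrobial peptides that the epididymal lining secretes, came next. It ran from 8.71 over 9.69 to 11.27 and then from 9.46 over 10.45 to 11.13, so that 0 recovery arrays were above all earlier ones although 17 were above the earlier mean (0.73 ± 0.18, limma adjusted p = 0.00255). Its spread was wider than that of the leukocyte genes.

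Of the other 12 of the 15 largest rises, Klrk1 (0.71 ± 0.11), Klrd1 (0.64 ± 0.08), Klrc3 (0.62) and Klrc1 (0.61) encode receptors of natural killer cells. Fcer1g, the signalling chain of Fc receptors, had 0.65 ± 0.12, Ccr2, the chemokine receptor of monocytes, 0.64 ± 0.09, and the lysophosphatidic acid receptor Lpar6 0.66 ± 0.09. Cd59b, which shields cells from complement, had 0.65, the galactosyltransferase B3galt2 0.69, the fatty acid elongase Elovl6 0.63, and Rasa1, which switches Ras off, 0.60. Klrc1 and Rasa1 had mean levels of 6.29 and 6.26 at the end of exposure, below the medians of the arrays (6.55 to 6.75). After recovery their means were 6.90 and 6.85. RT1-Ba, a class II alpha chain, had 0.62 ± 0.09.

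Class II molecules show peptides from outside the cell to helper T cells. Of 14 genes of this pathway 8 rose and 0 fell, and the median was 0.32. After Cd74 and RT1-Ba they were RT1-Da (0.59), RT1-Bb (0.53), the lysosomal proteases Ctss (0.45), which trims the invariant chain, and Lgmn (0.38), RT1-DMa, part of the peptide exchanger (0.33 ± 0.06), and RT1-Db1 (0.32 ± 0.05). RT1-Ba was at 6.67, 7.51 and 7.94 at the end and at 7.44, 8.14 and 8.44 after recovery, and 13 recovery arrays were above all earlier ones.

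Class II genes share a promoter module read by the RFX, CREB and NF-Y factors with the coactivator CIITA, and its Y box is the NF-Y site. The letters CTGATTGG were searched on both strands. They were found in the promoters of 4 of 12 members with a promoter, against 3.5% of all. All 4 belong to chain genes that rose, and they are shown with the box in capitals, from GRCr8 (RefSeq). RT1-Ba lies at chr20:4576807-4577106 (plus strand) with the box at -46, RT1-Bb at chr20:4604069-4604368 (minus strand) with the box at -64, RT1-Da at chr20:4515165-4515464 (plus strand) at -52 and RT1-Db1 at chr20:4560113-4560412 (minus strand) at -83.
RT1-Ba: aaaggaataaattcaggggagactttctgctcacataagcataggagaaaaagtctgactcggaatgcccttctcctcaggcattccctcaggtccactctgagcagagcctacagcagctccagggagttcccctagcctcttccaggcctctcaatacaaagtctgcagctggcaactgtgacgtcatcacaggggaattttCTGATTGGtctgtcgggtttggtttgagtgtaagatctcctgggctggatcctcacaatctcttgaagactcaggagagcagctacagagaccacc
RT1-Bb: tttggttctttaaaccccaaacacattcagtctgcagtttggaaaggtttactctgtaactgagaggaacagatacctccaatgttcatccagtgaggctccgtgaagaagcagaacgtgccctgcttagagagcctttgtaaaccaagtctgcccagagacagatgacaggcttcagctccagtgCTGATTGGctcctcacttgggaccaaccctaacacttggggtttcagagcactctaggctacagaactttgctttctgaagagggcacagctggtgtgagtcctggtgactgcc
RT1-Da: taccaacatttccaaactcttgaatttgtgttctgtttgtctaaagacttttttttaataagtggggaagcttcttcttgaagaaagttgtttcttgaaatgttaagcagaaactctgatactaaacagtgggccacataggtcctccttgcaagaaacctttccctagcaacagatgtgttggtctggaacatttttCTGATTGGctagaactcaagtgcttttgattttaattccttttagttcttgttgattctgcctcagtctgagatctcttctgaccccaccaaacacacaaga
RT1-Db1: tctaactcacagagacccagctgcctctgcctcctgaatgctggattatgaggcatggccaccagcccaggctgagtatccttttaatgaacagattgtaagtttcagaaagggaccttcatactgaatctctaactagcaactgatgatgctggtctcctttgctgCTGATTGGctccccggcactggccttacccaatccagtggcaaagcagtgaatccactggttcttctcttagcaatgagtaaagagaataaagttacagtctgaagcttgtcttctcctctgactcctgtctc

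Of 26 macrophage and dendritic cell genes 13 rose and 1 fell, with a median of 0.19. After Clec7a and Fcer1g the rises included Ptprc, the CD45 of all leukocytes (0.57 ± 0.10), the lysozyme Lyz2 (0.43), the adaptor Tyrobp (0.37), the fractalkine receptor Cx3cr1 (0.31) and the haemoglobin scavenger receptor Cd163 (0.30). Aif1, a calcium-binding protein of macrophages that is also found in spermatids, fell by 0.37. Of 24 T and natural killer cell genes 15 rose and 0 fell, with a median of 0.23. Klrk1, an activating receptor, was at 7.09, 7.91 and 8.45 at the end and at 7.86, 8.66 and 9.13 after recovery, and 12 recovery arrays were above all earlier ones. The killing proteins Gzma (0.51) and Prf1 (0.47), the chemokines Ccl5 (0.47) and Xcl1 (0.32), the coreceptors Cd4 (0.51) and Cd8a (0.18) and the T cell receptor chains Cd3g (0.23) and Cd3e (0.19) rose.

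Other blood cells had fewer calls. None of 7 B cell genes passed by limma: 0 rose and 0 fell, with Cd79b, part of the B cell receptor, at -0.13 ± 0.05 and the kinase Blk at -0.04 ± 0.05. Of 16 neutrophil genes 4 rose and 2 fell, a share called above the 16.4% of all genes. Lactoferrin (Ltf, 0.50) and the granule proteases Mmp9 (0.27) and Mmp8 (0.26) rose, with the receptor Cxcr2 (0.23). Mmp8 gave a weak signal, with mean levels of 6.19 and 6.44, below the medians of the arrays (6.55 to 6.75). Lcn2, a siderophore-binding protein that epithelia make too, fell by 0.46 ± 0.06 and was below all earlier arrays on 18 of 19 recovery arrays. Among 10 red cell genes 0 passed in either direction, and the beta-globins Hbb (0.06 ± 0.14) and Hbb-b1 (0.02 ± 0.14) did not pass. Of 28 interferon-induced genes 5 rose and 0 fell, with a median of 0.06. The share called was near that of all genes, where 16.4% were called and 9.02% rose. The rises were those of the guanylate-binding proteins Gbp5 (0.47 ± 0.07) and Gbp2 (0.30), Herc6 (0.35), Ifi47 (0.33) and Ifi44 (0.18). Herc6, with mean levels of 6.13 and 6.48, was also below the medians of the arrays.

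**Figure D3:**
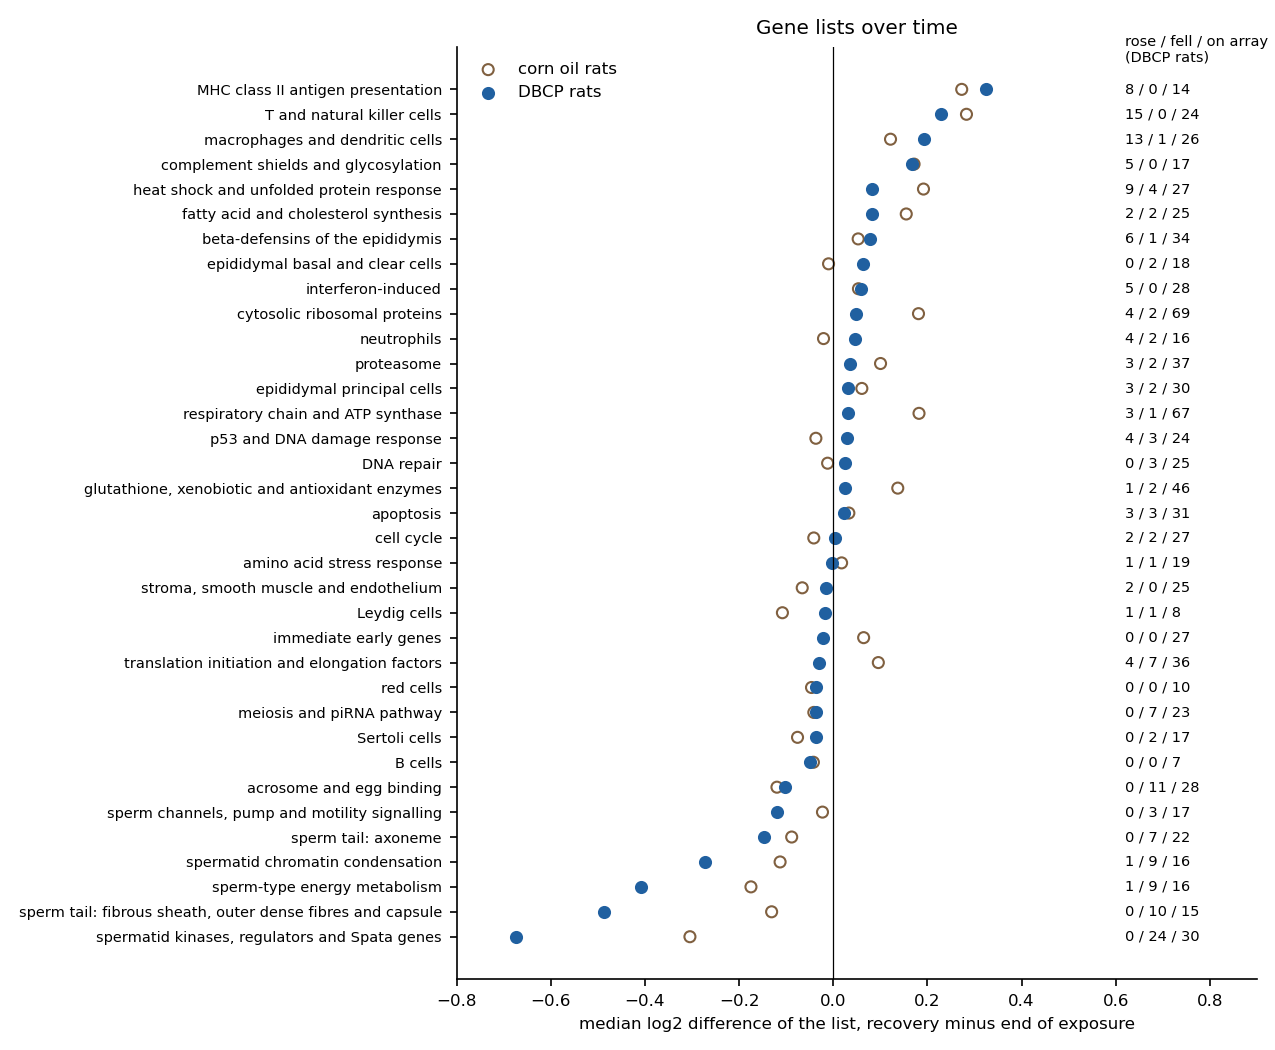
Median log2 difference (recovery minus end of exposure) of each of the 35 gene lists in DBCP rats (filled) and corn oil rats (open), sorted by the DBCP value; the numbers at the right give the members that rose, fell and were on the array in DBCP rats. The lists of spermatid products lie at the bottom, down to -0.67, and class II, T and natural killer cell and macrophage genes at the top, up to 0.32.

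Genes of the epididymal duct showed no common direction. Of 30 genes of principal cells, which secrete into the duct, 3 rose and 2 fell, with a median of 0.03. Ptgds, the prostaglandin D synthase (0.48), the chloride channel Cftr (0.19) and the exchanger Slc9a3 (0.17) rose. Cst8, a cystatin of the epididymis that is also made in spermatids, fell by 0.91 ± 0.15, and Cuzd1 fell by 0.22. Of 34 beta-defensins 6 rose and 1 fell, with a median of 0.08. The shares called among principal cell genes and beta-defensins were not far from the 16.4% of all genes. After Defb43 the rises were those of Defb11 (0.46), Defb9 (0.39), Defb10 (0.26), Defb2 (0.25) and Defb51 (0.21), while Defb22, which coats the sperm surface, fell (-0.35 ± 0.07). The mean level of Defb22 was 5.81 and then 5.46, a weak signal below the medians of the arrays (6.55 to 6.75). Of 18 genes of basal and clear cells 0 rose and 2 fell, the carbonic anhydrase Car2 (-0.33) and the ammonium transporter Rhcg (-0.24). Of 25 stromal and vessel genes 2 rose, the matrix proteoglycans Dcn (0.49 ± 0.15) and Lum (0.32). Lum had mean levels of only 4.25 and 4.57, far below the medians of the arrays, so its difference lies among the weakest signals. Among 17 Sertoli cell genes the 2 falls were Clgn, a chaperone of germ cells (-0.46), and Inha, the inhibin alpha chain (-0.20). Among 8 Leydig cell genes the luteinizing hormone receptor Lhcgr fell by 0.55 ± 0.10 and Ptgds, counted above, rose. The mean levels of Lhcgr, 6.52 and 5.97, were also below the medians of the arrays.

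DBCP damages germ cell DNA, and it is conjugated to glutathione in the body. Genes of these responses had no common direction between the time points. Of 24 genes of the p53 response 4 rose and 3 fell, a share called above the 16.4% of all genes. The cell cycle inhibitor Cdkn1a, its best known target, was at 7.11, 7.37 and 7.66 at the end and at 6.60, 7.16 and 7.51 after recovery (-0.21 ± 0.05, limma adjusted p = 0.0039). Bax (-0.18) and Phlda3 (-0.14) also fell, while Rrm2b (0.25), Tp53inp1 (0.25), Mdm4 (0.25) and the kinase Atm (0.13) rose. Rrm2b gave a weak signal, with mean levels of 5.82 and 6.07, below the medians of the arrays. Of 25 DNA repair genes 0 rose and 3 fell: Lig3 (-0.36 ± 0.07), Polb (-0.28) and Apex1 (-0.14). The share called among repair genes was below the 16.4% of all genes. The calls of Polb and Apex1 were lost with the replicate block and without the arrays of low weight, and that of Polb in 14 of the fits that left out 1 array. Mgmt, which removes alkyl groups from guanine, did not pass (-0.09 ± 0.05).

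Of 46 genes for glutathione, xenobiotic and antioxidant enzymes 1 rose and 2 fell, with a median of 0.03. Gstm5, a glutathione transferase that rodents also make in germ cells, was at 10.72, 11.73 and 12.63 and then at 10.55, 10.97 and 11.54 (-0.70 ± 0.12, limma adjusted p = 7.4e-06). Gpx4, named above with the capsule, was the second fall, and catalase (Cat) rose by 0.27. Gstm1 (0.16 ± 0.11) and the haem oxygenase Hmox1 (-0.04 ± 0.07) did not pass. The amino acid stress list of 19 genes had 1 rise, Slc7a11, the cystine transporter (0.29), and 1 fall, Asns, the asparagine synthetase (-0.37 ± 0.09). In both the glutathione and the amino acid stress list the share called was below the 16.4% of all genes. Of 31 apoptosis genes 3 rose, among them Casp1 (0.40) and Bcl2 (0.39), and 3 fell, among them Diablo (-0.22). That share was not far from the 16.4% called over all genes. Bcl2l1 fell by 0.16, while its other probe set had -0.03. Of 27 immediate early genes, which mark handling and stress, 0 passed by limma. Clu, a chaperone of damaged tissue and of the epididymis, had -0.17 ± 0.08 and did not pass.

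Chaperones were split. Of 27 heat shock and unfolded protein response genes 9 rose and 4 fell, with a median of 0.08. The share called was above the 16.4% of all genes. The rises were those of the endoplasmic reticulum chaperones Hsp90b1 (0.55 ± 0.13), Hspa5 (0.52), Pdia3 (0.49), Calr (0.46) and Pdia4 (0.32) and of Dnaja1, Hspa8, Hsp90ab1 and the sensor Atf6. The falls were those of Herpud1 (-0.75 ± 0.14), the germ cell chaperones Hspa4l (-0.74 ± 0.15) and Hspa2 (-0.44), and Dnajb1 (-0.32). Hspa8 rose by 0.35, and its 7 other probe sets had 0.24 to 0.34, so the signal may be shared by near-identical copies.

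Of 69 ribosomal protein genes 4 rose and 2 fell, with a median of 0.05, of 67 respiratory chain genes 3 rose and 1 fell (0.03), and of 37 proteasome genes 3 rose and 2 fell (0.04). The share called in each of these 3 lists was below the 16.4% of all genes. Rps4x (0.46 ± 0.12), Uqcrh of complex III (0.42 ± 0.11), Cox6c of complex IV (0.36) and Psmd14 (0.35) rose. Psma6 fell by 0.83 ± 0.14, while its other probe set had -0.06. Of 36 translation factors 4 rose and 7 fell, a share above the 16.4%, with a median of -0.03 (0.10 in corn oil rats). Eif2s1 (-0.62 ± 0.15) and the cap-binding Eif4e (-0.48 ± 0.09) fell, while Eif2s3, of the same initiation factor as Eif2s1 (0.55), and the translation inhibitor Pdcd4 (0.52) rose. Of 25 lipid synthesis genes 2 rose, Elovl6 and Acsl4 (0.51), and 2 fell, Acsl1 (-0.51 ± 0.13) and Acsl6 (-0.14). Of 17 genes for complement shields and glycosylation 5 rose, Cd59b, B3galt2, Dad1 (0.40), Cr1l (0.24) and Magt1 (0.18). The share called in this list was above the 16.4% of all genes. Of 27 cell cycle genes 2 rose and 2 fell. The shares called in the lipid synthesis and cell cycle lists were near the 16.4% of all genes.

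Most genes called in DBCP rats had the same sign in corn oil rats. Of the DBCP rises 1218 were above 0 there and 91 were not, and of the DBCP falls 1025 were below 0 and 52 were not. Among corn oil rats 2314 genes rose (16%) and 1787 fell (12.3%). Of the genes that rose in DBCP rats 820 rose in corn oil rats too, 62.6% of the DBCP rises and 35.4% of the corn oil rises. Of those that fell 459 fell in both, 42.6% of the DBCP falls and 25.7% of the corn oil falls, and 0 genes were called in opposite directions. The 2 comparisons share no array but share the times of collection. They also share the estimate of each probe set's spread, since 1 fit held all 4 groups, so their calls are not independent. Over all genes, which are not independent replicates, their differences correlated with Pearson's r of 0.66 and Spearman's rho of 0.61.

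**Figure D4:**
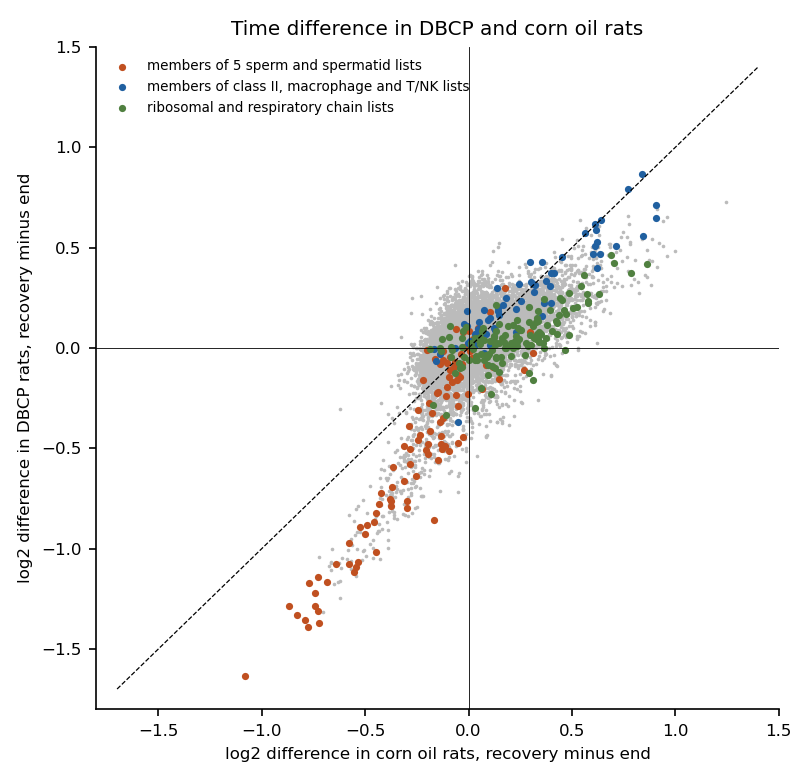
Log2 difference between recovery and end of exposure in corn oil rats (horizontal) and DBCP rats (vertical), 1 point per gene, with the line of equal differences dashed. The leading spermatid genes (orange) lie below 0 on both axes and below the line at the lower left, many immune cell genes (blue) lie near the line, and most ribosomal and respiratory chain genes (green) lie to the right of it; 0 probe sets passed the test of the difference between treatments.

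The sizes differed between treatments in the point values. Spata19 had -1.63 in DBCP rats and -1.08 in corn oil rats, Akap4 -1.37 and -0.72, and Prm2 -1.09 and -0.54. The median of the kinase and regulator list was -0.67 and -0.30, or -0.47 and -0.19 without the 6 members set apart above, of which Fndc8 is described below. That of the fibrous sheath list was -0.49 and -0.13, and that of energy metabolism -0.41 and -0.17. Some immune cell genes were closer, with Clec7a at 0.87 and 0.84, Cd74 at 0.79 and 0.77, and class II medians of 0.32 and 0.27. Others were larger in corn oil rats, such as Fcer1g (0.65 and 0.91) and Klrk1 (0.71 and 0.91). The medians were 0.19 and 0.12 for macrophage genes and 0.23 and 0.28 for T and natural killer cell genes. Ribosomal proteins had medians of 0.05 and 0.18, with 4 rises in DBCP and 32 in corn oil rats, the respiratory chain 0.03 and 0.18, with 3 and 33, and glutathione genes 0.03 and 0.14, with 1 and 17.

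For single genes none of these differences between treatments passed its own test, and the list medians were not tested. The interaction in limma called 0 of 29214 probe sets, its unadjusted p was under 0.05 for 3170, and the lowest adjusted p was 0.454. The 3 genes of smallest p were Rab18, a small GTPase of lipid droplets, Fndc8 and Vegfc, a growth factor of lymphatic vessels. Rab18 rose in DBCP rats (0.33 ± 0.06) and had -0.03 in corn oil rats, and its other probe set had 0.13 in DBCP rats. Fndc8 was at 9.13, 9.82 and 10.97 at the end and at 8.54, 8.96 and 9.40 after recovery in DBCP rats, a fall of 0.86 ± 0.13, against -0.17 in corn oil rats. Vegfc rose by 0.21 and had -0.11 in corn oil rats.

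Marker levels moved with the comparison. The mean of 8 sperm and late spermatid markers (Prm1, Prm2, Tnp2, Akap4, Odf1, Smcp, Gapdhs and Ldhc) ran from 10.92 over 11.71 to 12.57 at the end of exposure in DBCP rats and from 10.60 over 11.12 to 11.73 after recovery. Every one of the 8 lay above the array medians on all 39 DBCP arrays, as the label sperm asks. The mean of 9 leukocyte markers, of which 7 rose, ran from 7.75 over 8.24 to 8.60 and then from 8.24 over 8.61 to 8.98. In corn oil rats the medians of the sperm level were 11.43 and 11.21, and those of the leukocyte level 8.38 and 8.72. The red cell markers had medians of 10.08 and 9.96, principal cell markers 7.66 and 7.42, and stromal markers 7.95 and 7.96. Of the 5 principal cell markers only Cst8 passed (-0.91), which is also made in spermatids, and 2 of the 5 were above 0. The longer list of 30 principal cell genes had a median difference of 0.03. The 3 clear cell markers on the array, Foxi1, Atp6v1b1 and Atp6v0d2, had medians of their mean level of 7.86 and 8.10 in DBCP rats and of 7.33 and 8.07 in corn oil rats, and none of the 3 passed in DBCP rats (Atp6v0d2 0.44 ± 0.16, limma adjusted p = 0.0564). The Sertoli cell level (6.58 and 6.63) and the Leydig cell level (6.77 and 6.74) lay near the medians of the arrays, 6.55 to 6.75. With the sperm level as a covariate in the limma fit, 42 of the 133 named genes that had passed no longer did, among them Spata19, Tnp1 and Prm2, and 14 others had the opposite sign, among them Prm1 and Ldhc; this level is itself made of Prm1, Prm2 and Ldhc. With the leukocyte and principal cell levels as covariates 36 no longer passed, among them Fcer1g and Ptprc, and Mmp9 had the opposite sign. Fcer1g and Ptprc are themselves part of the leukocyte level, and Cst8 is part of the principal cell level.

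**Figure D5:**
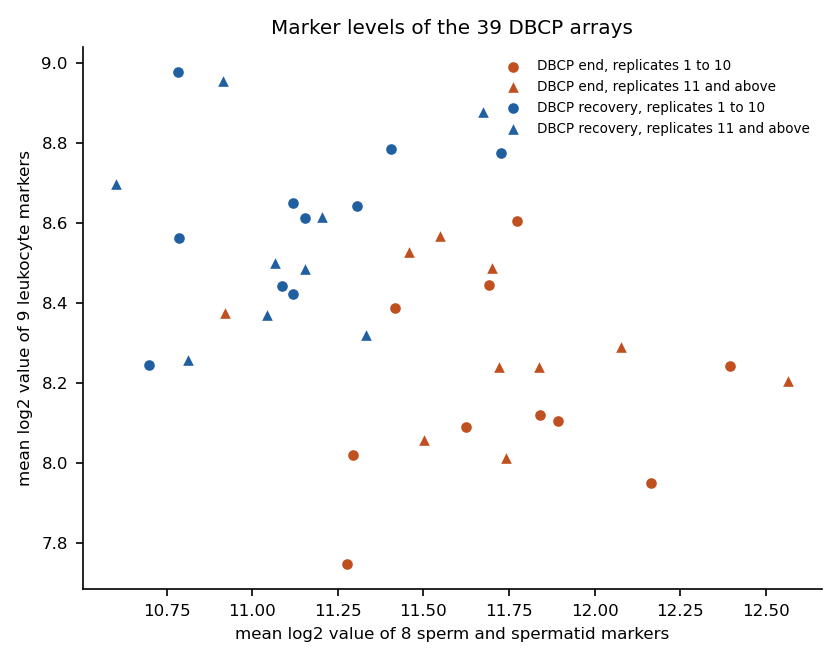
Mean log2 value of 9 leukocyte markers (vertical) against that of 8 sperm and spermatid markers (horizontal) on each of the 39 DBCP arrays; circles are replicate numbers 1 to 10 and triangles 11 and above. Recovery arrays (blue) lie to the upper left of the arrays from the end of exposure (orange), with overlap in both levels, and within neither group do the points form a line.

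Within a group no relation between the 2 levels passed. Across the 20 arrays of the end of exposure the sperm and leukocyte levels had r of -0.05 (permutation p = 0.821) and across the 19 recovery arrays 0.25 (permutation p = 0.302). The leukocyte level did go with the mean level of the ribosomal proteins, with r of 0.62 at the end (rho 0.59, permutation p = 0.00374, adjusted over 4 relations 0.00748) and 0.65 after recovery (rho 0.69, permutation p = 0.00286, adjusted 0.00748). Without the 2 arrays farthest from the median leukocyte level, r was 0.53 and 0.68.

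The replicates carry numbers 1 to 10 and 11 and above, which nothing names as batches. Spata19 had -1.68 in numbers 1 to 10 and -1.58 in the others, Akap4 -1.50 and -1.24, and Prm2 -1.14 and -1.04. Ms4a14 (-1.56 and -1.09) and Cby2 (-1.44 and -1.05) differed more. Of the 3 largest rises, all were smaller in the higher numbers, with Clec7a at 0.99 and 0.74, Cd74 at 1.00 and 0.58, and Defb43 at 0.94 and 0.52. Those of Rps4x (0.78 and 0.13), Uqcrh (0.74 and 0.10), Cox6c (0.63 and 0.10) and Cox8a (0.47 and 0.08) were near 0 there. The sperm level went from 11.74 to 11.12 in the first set and from 11.71 to 11.09 in the other, and the leukocyte level went from 8.17 to 8.61 and from 8.30 to 8.56. Numbers 1 to 10 alone called 3035 probe sets, of which 2755 (90.8%) had the same sign in the higher numbers, against 64.9% of all probe sets, and 383 were called there too. The probe sets that fell in the first set had a median of -0.31 there and -0.22 in the higher numbers, and those that rose 0.33 and 0.13. The higher numbers alone called 505 probe sets, with a median SE of 0.09 against 0.08, and 120 rose while 385 fell.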

How the data were processed

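Each value is the log2 summary of 1 probe set on 1 array, as deposited by the authors in the series' table. The platform annotation gave 1 gene symbol to 15310 of 29214 probe sets (14506 genes), and the brightest probe set on average stood for a gene. Limma is named in the submitters' processing notes. The steps for background and scale are, in the sources used here, not given. There were 0 missing values. No further scaling was applied. Limma 3.58.1 (lmFit and eBayes, under R 4.3.3) fitted 4 group means to the 78 arrays, with Benjamini-Hochberg adjustment over all probe sets and a threshold of 0.05. The fit was tested on simulated data. Arrays, not reads, limit the precision. Any 2 DBCP arrays correlated at 0.889 to 0.987, and 0 pairs were identical. The groups and the 35 lists (901 of 1044 members on the array) were chosen with earlier results of these data known. Named genes are the 15 largest rises and falls, in each list the 4 passing members of smallest p (the 2 of highest mean if 0 passed), the 3 of smallest interaction p, and 13 sperm, damage and detoxification genes. Other passing list members are named as examples chosen after their values were seen. Alternatives were other scalings, filters, variance priors, subsets of arrays, marker levels as covariates, the replicate block and leaving out each array.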

Additional observations from a re-analysis of the deposited data

How the results depend on the processing

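The counts of 3933 called probe sets, 2126 that rose and 1807 that fell, came to 4114, 2103 and 2011 after quantile normalization. In the brighter 14607 probe sets, where fewer were tested, 2375 were called and 1011 rose. With 1 probe set per gene fitted alone 1176 fell, against 1077 of the same 14506 genes in the main fit. The higher replicate numbers alone, with fewer arrays, called 505 (120 rose, 385 fell). With the sperm marker level as a covariate 8350 were called (3401 rose, 4949 fell), and 1206 of the main rises and 668 of the main falls were among them. The cause was not tested. With the replicate block 2826 were called (1574 rose, 1252 fell). The labels name no animals and do not say whether arrays of the same number are related. In their deviations the 19 same-numbered pairs had correlations from -0.35 to 0.28, on both sides of 0. Of these pairs 6 correlated above 0.1, while 0 correlated best with their own number. Without the 6 arrays of low limma weight (5 of DBCP rats) 3409 were called. Leaving out each DBCP array gave 3303 to 4558 calls, 1745 to 2511 rises and 1558 to 2048 falls. The interaction called 0 probe sets after quantile normalization, with array weights and without the arrays of low weight.

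Of 133 named genes that passed, 2 lost the call after quantile normalization, 11 with the replicate block, 27 in numbers 1 to 10 alone, 73 in the higher numbers alone, 36 with leukocyte and principal cell levels as covariates and 42 with the sperm level. Among the last were Spata19, Spata31f3, Tnp1 and Prm2. With the sperm level, which holds several of the named genes, 14 more turned: Dnah8 to 0.075, Mael to 0.059, Clgn to 0.086, Polb to 0.18, Gpx4 to 0.14, Hspa4l to 0.13, Asns to 0.065, Diablo to 0.046, Ndufa12 to 0.19, Eif2s1 to 0.12, Acsl1 to 0.16, Prm1 to 0.028, Smcp to 0.0027 and Ldhc to 0.0061. With leukocyte and principal cell levels Mmp9 turned to -0.047. Leaving out 1 array ended the call of 7 named genes, Apex1, Bub1, Cox8a, Ndufa12, Polb, Ptgds and Smcp, in 1 to 22 of the fits.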
